A study of Mus musculus with 37 samples.

Results

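Tailbuds of 37 mouse embryos were compared by how strongly they expressed Hes7, Lfng and Nrarp, which are genes of the Notch segmentation clock. Each embryo was given a clock score, the mean log2(CPM + 1) of the 3 genes minus the mean of all embryos with the same somite number, where CPM is counts per 1000000 counts in that embryo's column of the table. The 12 embryos with the highest scores and the 12 with the lowest were chosen by these values, and 13 embryos lay between them. All embryos were C57BL/6/Cast F1 at about embryonic day 8, with 6 to 11 somites, and each gave 1 poly(A) RNA-seq library. Controls (Smchd1wt, Smchd1[fl/+]) carried a floxed maternal allele with normal function, and Smchd1matΔ embryos (Smchd1[del/+]) came from oocytes in which an MMTV-Cre transgene, carried by the mother, had deleted Smchd1. The same embryos therefore lacked both the oocyte supply of SMCHD1 and their own maternal copy, and their paternal Castaneus allele was intact. Tailbuds had been cut below the last formed somite, so that the tissue held presomitic mesoderm and axial progenitors together with the tissues around them.

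The segmentation clock is an oscillator in the presomitic mesoderm, the unsegmented tissue from which somites bud in pairs. Ligands of the Delta family activate Notch receptors on neighbouring cells, the released receptor fragment joins the DNA-binding protein RBPJ, and the targets switched on include repressors that turn the pathway off again. Hes7 is a transcriptional repressor that shuts down its own gene. Lfng is a glycosyltransferase that modifies Notch receptors, and Nrarp binds the active receptor complex and limits it. Genes of the FGF and Wnt pathways also oscillate in the mouse presomitic mesoderm. A bulk library averages a tailbud over all its cells, so fewer cells of a type and less RNA per cell cannot be told apart in any of the values that follow.

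The promoters of the 3 scoring genes are shown because their shared level defined the groups. Each runs from 250 bases before to 50 bases after the start given by RefSeq (GRCm38.p6, + strand, chr11:69120203-69120502 for Hes7, chr5:140607091-140607390 for Lfng and chr2:25180508-25180807 for Nrarp). Capitals mark GTGGGAA, the core letters bound by RBPJ, and CACGTG and CACGCG, letters bound by Hes-type and other basic helix-loop-helix proteins, on either strand.
Hes7: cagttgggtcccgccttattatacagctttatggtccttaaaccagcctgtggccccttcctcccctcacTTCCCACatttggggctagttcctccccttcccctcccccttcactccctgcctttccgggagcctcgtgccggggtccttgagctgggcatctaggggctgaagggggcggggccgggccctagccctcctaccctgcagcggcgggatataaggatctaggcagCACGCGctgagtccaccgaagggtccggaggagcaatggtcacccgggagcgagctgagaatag
Lfng: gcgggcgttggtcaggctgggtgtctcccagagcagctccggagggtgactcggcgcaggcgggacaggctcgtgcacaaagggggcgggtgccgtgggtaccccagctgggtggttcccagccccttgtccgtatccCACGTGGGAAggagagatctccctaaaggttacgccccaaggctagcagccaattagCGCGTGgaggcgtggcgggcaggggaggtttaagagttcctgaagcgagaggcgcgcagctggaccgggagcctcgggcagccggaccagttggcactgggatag
Nrarp: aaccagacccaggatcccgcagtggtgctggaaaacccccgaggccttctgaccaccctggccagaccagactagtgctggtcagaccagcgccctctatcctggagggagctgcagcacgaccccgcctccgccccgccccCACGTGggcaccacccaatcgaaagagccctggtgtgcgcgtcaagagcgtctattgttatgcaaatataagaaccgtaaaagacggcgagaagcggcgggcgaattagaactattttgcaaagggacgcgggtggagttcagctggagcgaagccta
The Hes7 window held GTGGGAA at position -180 (its first base, counted from the start) on the reverse strand and CACGCG at -14. In the Lfng window CACGTG at -112 overlapped GTGGGAA at -109, and CACGCG lay at -55 on the reverse strand. The Nrarp window held only CACGTG, at -108. Of 32851 mouse promoter windows of the same length, 6.38% held GTGGGAA, 7.15% CACGTG and 9.27% CACGCG, so the letters are common and a match is a description alone.

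Scores in the high group ran from 0.14 to 1.03 with a median of 0.23, and in the low group from -0.46 to -0.18 with a median of -0.28. The embryo just inside the high group scored 0.14 and the one just outside 0.12, and the corresponding pair of the low group scored -0.18 and -0.15, so that the limits fell within a continuous range. Smchd1wt replicate 2 at 11 somites stood apart at 1.03, while the next embryo scored 0.57. Both groups held embryos of every stage from 6 to 11 somites, and each held 6 embryos with 6 to 8 somites and 6 with 9 to 11. The high group had 7 Smchd1wt and 5 Smchd1matΔ embryos, 10 of them female and 2 male, and the low group 8 Smchd1wt and 4 Smchd1matΔ, 7 female and 5 male.

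**Figure D1:**
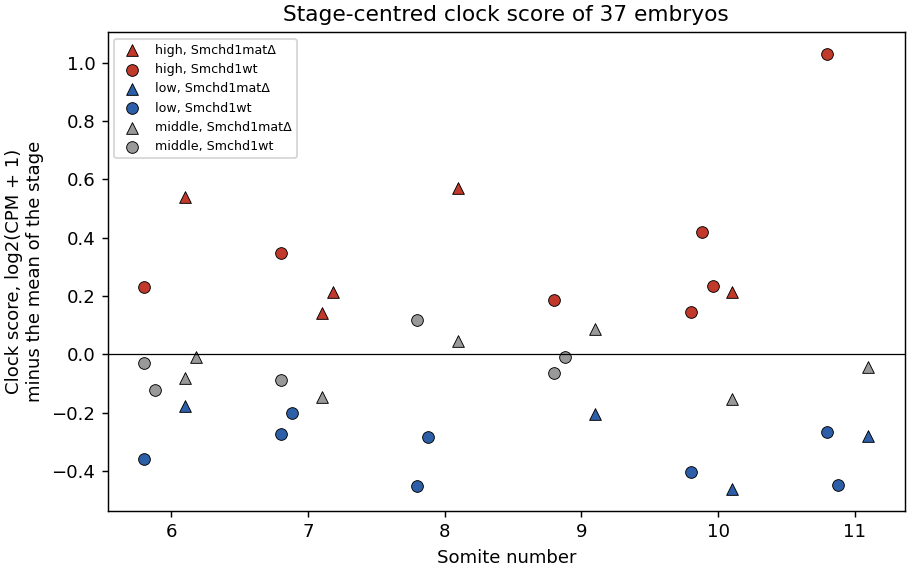
Stage-centred clock score (y axis, log2(CPM + 1) minus the mean of the stage) of each of the 37 embryos against somite number (x axis), with circles for Smchd1wt and triangles for Smchd1matΔ and colours for the score groups. Red embryos of the high group lie at 0.14 or above, blue embryos of the low group at -0.18 or below, and 1 Smchd1wt embryo at 11 somites reaches 1.03.

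Depth was similar in both groups, at 9.46 to 21.1 (median 13.8) in high-score and 5.68 to 30.2 (median 11.6) in low-score embryos, in units of 1000000 counts, and the 2 libraries under 4 such units both lay between the groups. The ribosomal RNA locus took 0.203% to 0.672% of counts (median 0.315%) in high-score and 0.243% to 2.77% (median 0.482%) in low-score embryos, with the highest value in Smchd1matΔ replicate 1 at 6 somites. Mitochondrial transcripts took a median of 0.843% and 0.890%. Smchd1, the deleted gene, was at 137 to 163 CPM in high-score and 104 to 181 CPM in low-score Smchd1wt embryos, against 78.5 to 107 CPM and 65.3 to 95.0 CPM in Smchd1matΔ embryos, so that the genotypes did not overlap within either group.

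The scoring genes are given as a description, since their values chose the embryos, and no test of them is reported. Hes7 (ENSMUSG00000023781, chromosome 11, 69120404 to 69124055) was at 27.5 to 69.5 CPM (median 40.5) in the 12 high-score embryos and at 19.3 to 39.1 CPM (median 23.6) in the 12 low-score embryos. Lfng (ENSMUSG00000029570, chromosome 5, 140607320 to 140615545) was at 15.5 to 51.5 CPM (median 27) in the 12 high-score embryos and at 9.43 to 24.2 CPM (median 15.3) in the 12 low-score embryos. Nrarp (ENSMUSG00000078202, chromosome 2, 25180758 to 25183339) was at 53.7 to 179 CPM (median 79.6) in the 12 high-score embryos and at 33.7 to 97.5 CPM (median 52.8) in the 12 low-score embryos. For each of the 3 genes all 12 high-score embryos lay above the low-score median, and the ranges of the groups overlapped. The score was centred within stages and averaged 3 genes, so a single gene could cross between groups. At 6 somites Lfng was at 15.5 CPM in high-score Smchd1wt replicate 3 and 16.3 CPM in low-score Smchd1wt replicate 2. Stage itself set much of the Nrarp level, whose median over all embryos of a stage was 42.7, 48.4 and 60.2 CPM with 6, 7 and 8 somites and 98.4, 95.2 and 97.5 CPM with 9, 10 and 11 somites. Hes7 and Lfng were both highest at 9 somites, with medians of 41.1 and 28.4 CPM, and had lower medians of 25.7 and 15.7 CPM at 11 somites. When a gene was left out and embryos were chosen by the other 2, its own fitted log2 difference was 0.72 (SE 0.15) for Hes7, 0.74 (SE 0.17) for Lfng and 0.55 (SE 0.10) for Nrarp, and between 10 and 12 of the 12 embryos in each group stayed in it. With all 3 genes in the score the fitted log2 differences were 0.80, 0.81 and 0.61, and leaving out each embryo in turn moved them between 0.65 and 0.86, 0.66 and 0.89, and 0.56 and 0.66. The same genes had chosen these groups, so differences above 0 were built in. All of these fitted values are a description alone. A long non-coding gene opposite Hes7 (9130213A22Rik) and a gene opposite Nrarp (Gm38287) overlap the scoring genes and were left out of all tests, because the labels name a stranded and a non-stranded kit without saying which library came from which.

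Across all other genes, 76 of 16348 tested were higher in high-score embryos (0.465%) and 184 were lower (1.13%), in edgeR's quasi-likelihood test with somite number, genotype and sex as covariates and an adjusted p-value under 0.05. These genes are described as in phase and out of phase with the score, which says only that they went with it across embryos. The median of all log2 differences was -0.01. In-phase differences were modest, with log2 differences from 0.22 to 1.65 and a median of 0.42, and only 2 of the 76 exceeded 1. Out-of-phase differences ran from -4.81 to -0.17 with a median of -0.78, and 68 of the 184 were beyond -1. The stage means pointed in the called direction at all 6 stages for 70 of the 76 and 155 of the 184 genes. These genes were called in the same embryos, so the agreement follows partly from the calls and is a description alone. The high group held 1 embryo each at 8, 9 and 11 somites, and the low group 1 at 9 somites, so some stage means are single embryos. In none of the 16348 genes did the 12 high-score embryos separate completely from the 12 low-score embryos. The numbers of calls depended strongly on single embryos. Leaving out each of the 24 embryos in turn gave 0 to 627 in-phase genes (median 37) and 0 to 880 out-of-phase genes (median 91.5). Both counts were 0 without Smchd1wt replicate 3 or Smchd1matΔ replicate 1 at 7 somites, both of the high group (2924 and 2857 genes at an unadjusted p-value under 0.05 in edgeR), and both peaked without Smchd1wt replicate 2 at 6 somites of the low group.

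**Figure D2:**
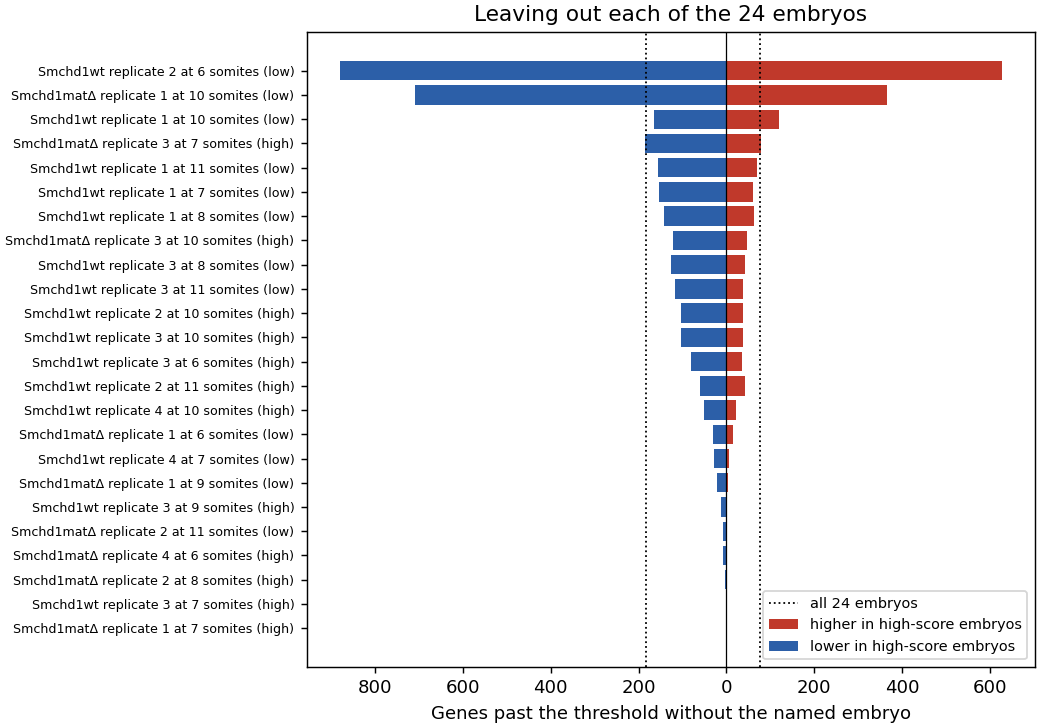
Number of genes past the adjusted threshold (x axis, in-phase genes in red to the right, out-of-phase genes in blue to the left) when each of the 24 embryos named on the y axis is left out, with its score group in brackets. Dotted lines mark the 76 and 184 genes called with all embryos, and the counts run from 0 to 627 and from 0 to 880.

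Of the Notch pathway itself, Dll1 and Notch1 rose with the score. Dll1 (ENSMUSG00000014773, chromosome 17, 15367354 to 15376872), the main Delta ligand of the presomitic mesoderm, was at 82.5 to 172 CPM (median 127) in the 12 high-score embryos and at 32.3 to 125 CPM (median 79.9) in the 12 low-score embryos. All 12 high-score embryos lay above the low-score median (log2 difference 0.66, SE 0.12, adjusted p = 0.0241, edgeR). The lowest Dll1 value of all, 32.3 CPM, was in Smchd1wt replicate 1 at 10 somites, and without that embryo the log2 difference was 0.58 (SE 0.06). Notch1 (ENSMUSG00000026923, chromosome 2, 26457903 to 26516663), the receptor that drives the clock, was at 49.9 to 81.3 CPM (median 67.1) in the 12 high-score embryos and at 26.2 to 64.1 CPM (median 48.3) in the 12 low-score embryos. Again all 12 high-score embryos exceeded the low-score median (log2 difference 0.60, SE 0.11, adjusted p = 0.0252, edgeR). The non-coding gene 0610009E02Rik, whose end overlaps Notch1 on the other strand, had a log2 difference of 0.76, and its reads cannot be told apart from those of Notch1 where the genes overlap.

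Dll3, a Delta relative that acts inside the cell and dampens Notch signalling, was at 39.4 to 60.7 CPM (median 47.9) in the 12 high-score embryos and at 15.2 to 48.6 CPM (median 36.5) in the 12 low-score embryos, and it did not pass the threshold (log2 difference 0.56, SE 0.14, adjusted p = 0.0526, edgeR). Rbpj, the DNA-binding partner of the receptor fragment, had a log2 difference of 0.26 (adjusted p = 0.129, edgeR). In the list of 17 ligands, receptors and nuclear partners, 2 were higher, 0 were lower and 15 did not pass, against 0.465% of all genes tested called higher. Their log2 differences ran from -0.12 to 0.66 with a median of 0.17, and 14 of the 17 were above 0, against 48.5% of all genes tested. The median fell to -0.01 when presomitic mesoderm markers were added to the fit.

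No association with the score was detected for the other Hes and Hey genes. None of the 12 targets in the list passed the threshold, and their median log2 difference was 0.07. Hes1, an oscillating repressor in many tissues, was at 33.4 to 70.7 CPM (median 45.3) in the 12 high-score embryos and at 30.8 to 67.9 CPM (median 44.3) in the 12 low-score embryos, so that its ranges were nearly the same (log2 difference -0.04, SE 0.10). The Hes1 median over all embryos of a stage was 32.1 CPM at 6 somites and 53.8 CPM at 11 somites. Hey1, a related repressor, was at 29.8 to 51.5 CPM (median 43.6) in the 12 high-score embryos and at 21.8 to 50.6 CPM (median 33.7) in the 12 low-score embryos (log2 difference 0.28, SE 0.09, adjusted p = 0.121, edgeR). For the 2 genes the high and low ranges overlapped over most of their width.

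**Figure D3:**
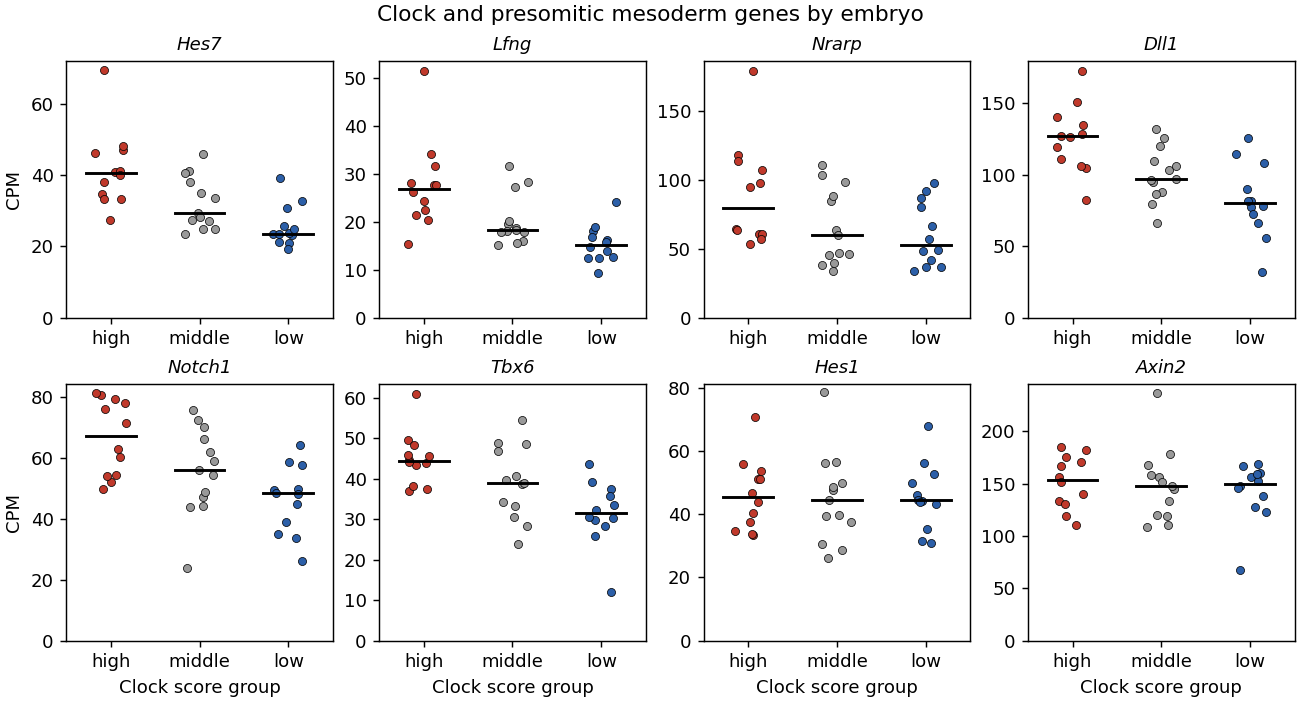
CPM (y axes, starting at 0) of 8 genes in every embryo of the high (12), middle (13) and low (12) score groups, with black bars at the medians. Hes7, Lfng and Nrarp chose the groups, Dll1, Notch1 and Tbx6 step down from high to low, and the medians of Hes1 and Axin2 are close in all groups.

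Among presomitic mesoderm factors, Tbx6 (ENSMUSG00000030699, chromosome 7, 126781483 to 126785560) rose with the score. This T-box factor specifies presomitic mesoderm and switches on Dll1. It was at 36.9 to 60.9 CPM (median 44.3) in the 12 high-score embryos and at 12.1 to 43.6 CPM (median 31.4) in the 12 low-score embryos (log2 difference 0.61, SE 0.13, adjusted p = 0.0312, edgeR). All 12 high-score embryos again lay above the low-score median. Msgn1, a factor of the same tissue downstream of Wnt and Tbx6, was at 45.2 to 77.5 CPM (median 57.4) in the 12 high-score embryos and at 14.3 to 61.8 CPM (median 51.4) in the 12 low-score embryos and did not pass the test (log2 difference 0.32, SE 0.15, adjusted p = 0.237, edgeR). All 9 tested members of the list, the scoring genes left out, had a log2 difference above 0 (median 0.32), against 48.5% of all genes tested. Of them 2 were called higher and 0 lower, against 0.465% and 1.13% of all genes tested. The 2 were Tbx6 and Dll1, which is also counted in the Notch list. The summed level of these 9 genes was 929 to 1122 CPM (median 1003) in high-score and 658 to 970.1 CPM (median 874) in low-score embryos, and the groups overlapped. The part of presomitic mesoderm in the other differences was not tested beyond a fit with Tbx6, Msgn1 and Rspo3 as a covariate. In that fit Dll1 had a log2 difference of 0.30 (SE 0.09) and Notch1 of 0.39 (SE 0.12), and 0 in-phase and 7 out-of-phase genes passed the threshold in edgeR, with 834 genes at an unadjusted p-value under 0.05.

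Dusp4, Dusp6 and Spred2, feedback genes of FGF signalling, were also higher with the score. Dusp4 and Dusp6 encode phosphatases that inactivate ERK, and Spred2 encodes an inhibitor of the Ras to ERK cascade. Dusp4 was at 246 to 319 CPM (median 280) in the 12 high-score embryos and at 115 to 263 CPM (median 216) in the 12 low-score embryos (log2 difference 0.39, SE 0.10). Dusp6 was at 162 to 244 CPM (median 186) in the 12 high-score embryos and at 111 to 206 CPM (median 154) in the 12 low-score embryos (log2 difference 0.32, SE 0.08). Spred2 had the smallest of the 3 differences, at 0.31 (SE 0.08). Their adjusted p-values were 0.0457, 0.0385 and 0.0406 in edgeR, close to the threshold, and all 12 high-score embryos exceeded the low-score median of each. Of the 14 FGF feedback and target genes tested, 3 were higher, 0 lower and 11 did not pass, with a median log2 difference of 0.21. Of all genes tested 0.465% were called higher.

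Genes of the Wnt arm of the clock did not pass the test. Axin2, the classic oscillating Wnt feedback inhibitor, was at 111 to 185 CPM (median 154) in the 12 high-score embryos and at 67.3 to 168 CPM (median 150) in the 12 low-score embryos (log2 difference 0.06, SE 0.12). Dact1, another Wnt modulator, was at 52.6 to 86.2 CPM (median 68.7) in the 12 high-score embryos and at 27.3 to 79.6 CPM (median 54.5) in the 12 low-score embryos (log2 difference 0.36, SE 0.11, adjusted p = 0.105, edgeR). All 14 tested Wnt genes had adjusted p-values above the threshold, with a median log2 difference of 0.09. A missed threshold does not show that the Wnt genes were alike in both groups, and for Axin2 the fitted value lay within 1 SE of 0.

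Progenitor and boundary genes did not pass the test. T, which encodes Brachyury and marks the streak and axial progenitors, was at 215 to 353 CPM (median 257) in the 12 high-score embryos and at 99.7 to 271 CPM (median 215) in the 12 low-score embryos (log2 difference 0.44, SE 0.14, adjusted p = 0.0945, edgeR). Fgf17, a ligand of the tail end, had a log2 difference of 0.37 (adjusted p = 0.0881, edgeR). Of 18 streak and progenitor genes 17 had differences above 0 (median 0.17), against 48.5% of all genes tested, and 0 passed. Foxc1, a forkhead factor of the anterior presomitic mesoderm, was at 9.52 to 28.9 CPM (median 19.5) in the 12 high-score embryos and at 4.94 to 24.9 CPM (median 11) in the 12 low-score embryos (log2 difference 0.56, SE 0.16, adjusted p = 0.0727, edgeR). Mesp2, which sets the next segment boundary, was at 0 to 0.879 CPM in high-score and 0 to 1.02 CPM in low-score embryos, with 0 counts in 3 and 4 embryos, so a difference could not be seen at this depth. Ripply1, a repressor at the segment boundary, had a log2 difference of -1.32 (SE 0.60, adjusted p = 0.217, edgeR). Among 10 boundary genes 0 passed, and the log2 differences ran from that value to 0.56 with a median of 0.03.

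Hoxa6 (ENSMUSG00000043219, chromosome 6, 52206288 to 52208722) had the smallest p-value of the in-phase genes. It was at 1.71 to 4.28 CPM (median 2.96) in the 12 high-score embryos and at 0.263 to 4.13 CPM (median 1.93) in the 12 low-score embryos (log2 difference 0.999, SE 0.18, adjusted p = 0.0241, edgeR), and 10 of the 12 high-score embryos exceeded the low-score median. These levels are low, and the fitted fold depends on low counts. On the log2(CPM + 1) scale the stage means differed by 0.83 and 0.89 at 6 and 7 somites. At 10 and 11 somites they differed by 0.18 and 0.10. Pygo1, a co-activator of the Wnt effector beta-catenin, was at 12.6 to 18.7 CPM (median 16.8) in the 12 high-score embryos and at 7.42 to 15.6 CPM (median 12.7) in the 12 low-score embryos (log2 difference 0.48, SE 0.09). Cnksr3, a scaffold protein linked to MAPK signalling, was at 36.9 to 54.8 CPM (median 42.9) in the 12 high-score embryos and at 21.3 to 40.3 CPM (median 33.2) in the 12 low-score embryos (log2 difference 0.42, SE 0.08). The other in-phase genes with the smallest p-values were Pdcd4, an inhibitor of translation, with 0.29, Sv2b, a synaptic vesicle protein, with 0.55, the zinc finger gene Zfp629 with 0.28 and Stc2, a secreted glycoprotein, with 0.55 on the log2 scale. Their adjusted p-values were between 0.0296 and 0.0304 in edgeR, and the stage means were higher in the high group at all 6 stages for each of them. Btg2, an early-response gene that slows division, rose by 0.38 on the log2 scale (adjusted p = 0.046, edgeR), although only 6 of 12 high-score embryos exceeded the low-score median. It was the only 1 of 12 immediate early genes called, against 0.465% of all genes tested called higher.

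Slc6a8 (ENSMUSG00000019558, chromosome X, 73673150 to 73682502), the creatine transporter, fell most clearly with the score. It was at 14.6 to 21.6 CPM (median 16.9) in the 12 high-score embryos and at 19.9 to 34.9 CPM (median 27.6) in the 12 low-score embryos (log2 difference -0.61, SE 0.09, adjusted p = 0.0111, edgeR). All 12 high-score embryos lay below the low-score median, and the ranges overlapped only between 19.9 and 21.6 CPM. Csrp1, a LIM protein of smooth muscle and other mesoderm, was at 59.4 to 114 CPM (median 84.2) in the 12 high-score embryos and at 82.2 to 176 CPM (median 119) in the 12 low-score embryos. Pmp22, a membrane protein best known from myelin, was at 35.8 to 91.5 CPM (median 58.5) in the 12 high-score embryos and at 52 to 141 CPM (median 97.3) in the 12 low-score embryos. Their log2 differences were -0.55 (SE 0.09) and -0.75 (SE 0.14), and every high-score embryo lay below the low-score median for both. Klf6, a zinc finger factor, Efhd2, a calcium-binding protein, Spin2c, a spindlin family gene, and Dpf3, a subunit of BAF chromatin remodelling complexes, had log2 differences of -0.50, -0.57, -0.74 and -1.21. Adjusted p-values of these 6 genes were between 0.0211 and 0.0241 in edgeR.

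Among the 10 out-of-phase genes with the smallest p-values, Xdh, Lgals3 and Plac8 had the log2 differences farthest from 0, and Xdh and Lgals3 were at low levels. Lgals3, a galactose-binding lectin, was at 0 to 1.75 CPM (median 0.277) in the 12 high-score embryos and at 0.444 to 31.1 CPM (median 1.81) in the 12 low-score embryos (log2 difference -3.44, SE 0.52, adjusted p = 0.0111, edgeR). Plac8, first described in placenta, was at 5.33 to 18.7 CPM (median 10) in the 12 high-score embryos and at 7.37 to 72.9 CPM (median 21.8) in the 12 low-score embryos (log2 difference -1.31, SE 0.20, adjusted p = 0.0111, edgeR). Xdh, xanthine dehydrogenase, was at 0 to 0.0835 CPM (median 0) in the 12 high-score embryos and at 0 to 4.99 CPM (median 0.046) in the 12 low-score embryos (log2 difference -4.81, SE 0.83). Xdh was carried by Smchd1wt replicate 2 and Smchd1matΔ replicate 1 at 6 somites, with 4.99 and 2.76 CPM, and its fitted fold depends on these low counts. The highest Lgals3 and Plac8 values, 31.1 and 72.9 CPM, were also in Smchd1matΔ replicate 1 at 6 somites.

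Hand1, Bmp4, Hand2 and Gata4, of the lateral plate and allantois list, fell with the score. Hand1, a factor of lateral mesoderm, heart and trophoblast, was at 23.2 to 80.9 CPM (median 52.9) in the 12 high-score embryos and at 45.9 to 203 CPM (median 75.1) in the 12 low-score embryos (log2 difference -0.88, SE 0.19, adjusted p = 0.032, edgeR). The value of 203 CPM was in Smchd1matΔ replicate 1 at 6 somites. That embryo also had the highest share of ribosomal RNA counts (2.77%) and the highest sum of the trophoblast genes described below (507 CPM). Bmp4, a signalling ligand of posterior and extraembryonic mesoderm, was at 34.6 to 65.5 CPM (median 49.9) in the 12 high-score embryos and at 51.8 to 74.4 CPM (median 64.1) in the 12 low-score embryos (log2 difference -0.43, SE 0.08, adjusted p = 0.0258, edgeR). Hand2 and Gata4, factors of the same mesoderm, had log2 differences of -0.33 and -1.36 (adjusted p = 0.0372 and 0.0469, edgeR). For Hand2 and Gata4 no high-score embryo exceeded the low-score median. Of 12 genes tested 4 were lower, 0 higher and 8 did not pass, against 1.13% of all genes tested called lower. All 12 had negative log2 differences (median -0.68), while 48.5% of all genes tested were above 0. Without Smchd1matΔ replicate 1 at 6 somites the median of the 12 was -0.59, and 0 of them were above 0. The summed level of the list was 199.5 to 441 CPM (median 344) in high-score and 305 to 605 CPM (median 454) in low-score embryos.

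Simple epithelial keratins moved with them. Krt8 was at 103 to 234 CPM (median 164) in the 12 high-score embryos and at 134 to 414 CPM (median 238) in the 12 low-score embryos and Krt18, its filament partner, at 73.1 to 147 CPM (median 115) in the 12 high-score embryos and at 94.8 to 249 CPM (median 147) in the 12 low-score embryos. Both fell (log2 differences -0.63 and -0.49, adjusted p = 0.0296 and 0.0333, edgeR). They were the 2 called of 11 surface ectoderm genes, against 1.13% of all genes tested called lower. In that list 9 log2 differences were below 0 and 2 above. Their highest values, 414 and 249 CPM, came from Smchd1matΔ replicate 1 at 6 somites, the embryo with the highest Hand1. The tops of the Hand1 and keratin ranges are therefore not separate observations. Twist1, a mesenchymal factor, was at 6.69 to 37.3 CPM (median 16.9) in the 12 high-score embryos and at 21.4 to 50.2 CPM (median 28.3) in the 12 low-score embryos (log2 difference -0.95, SE 0.22, adjusted p = 0.0347, edgeR) and was the only 1 of 8 tested somite list genes called. Most of the list's other members did not share its direction, since 5 of the 8 had log2 differences above 0. Of all genes tested 1.13% were called lower.

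Posterior Hox genes differed in direction by paralogue group. Hoxa10, a gene of the lumbar level, was at 1.56 to 19.7 CPM (median 14.2) in the 12 high-score embryos and at 13.3 to 25.1 CPM (median 22.3) in the 12 low-score embryos (log2 difference -0.998, SE 0.22, adjusted p = 0.0315, edgeR). Hoxa11 was at 0.165 to 6.85 CPM (median 2.18) in the 12 high-score embryos and at 4.17 to 12.6 CPM (median 6.33) in the 12 low-score embryos (log2 difference -1.71, SE 0.33, adjusted p = 0.028, edgeR). Hoxa13 had a log2 difference of -1.18 and did not pass (adjusted p = 0.105, edgeR). Hoxc8 was at 136 to 302 CPM (median 212) in the 12 high-score embryos and at 120 to 282 CPM (median 155) in the 12 low-score embryos, with a difference of the other sign (log2 difference 0.27, SE 0.09, adjusted p = 0.101, edgeR). Of 15 posterior Hox genes tested 2 were lower, 0 higher and 13 did not pass, with 6 log2 differences above 0 and 9 below. The 6 were all Hox8 and Hox9 genes. The 9 were Hoxd9 (-0.06) and all the Hox10 to Hox13 genes tested. This split was noticed after the values had been seen and was not tested. Of all genes tested 1.13% were called lower. The genes at the 5′ end of the Hoxa cluster are also known from the allantois.

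**Figure D4:**
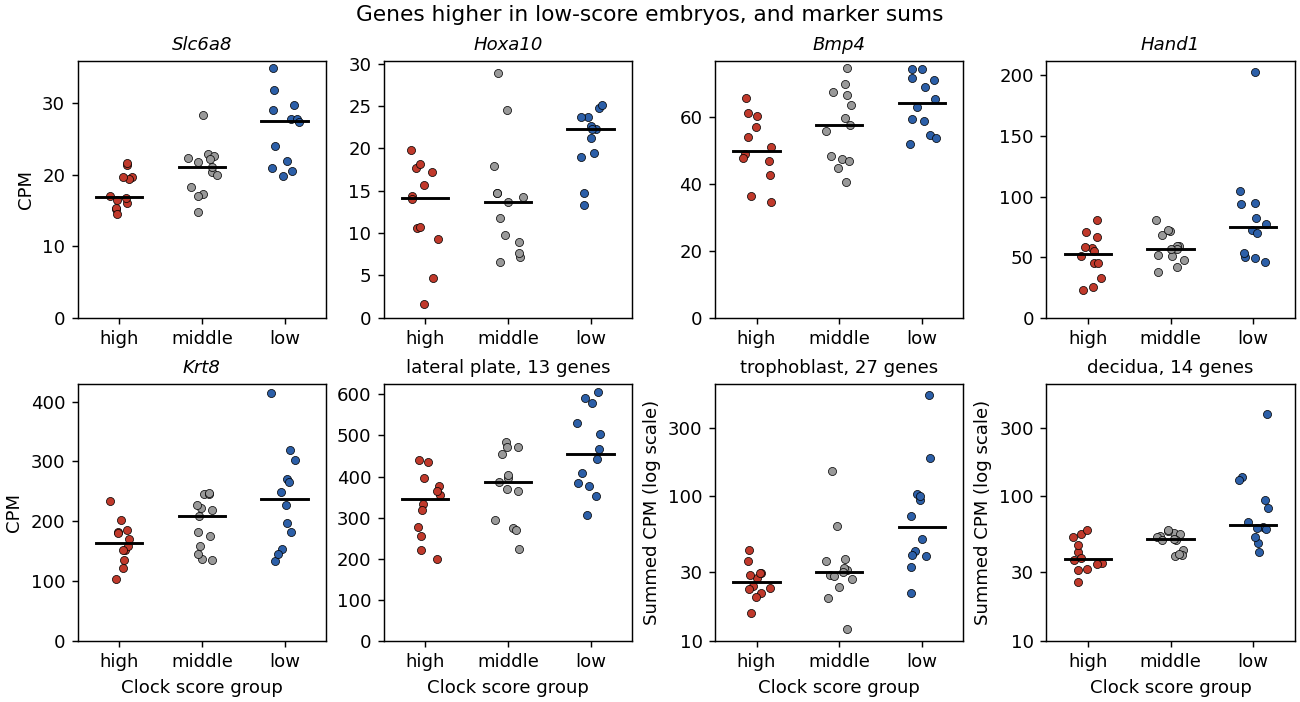
CPM of 5 out-of-phase genes and summed CPM of marker lists (y axes, log scale for the trophoblast and decidua sums) in each embryo of the high, middle and low score groups, with bars at the medians. Slc6a8 is lowest in the high group, the lateral plate sum has medians of 344 and 454 CPM, and 1 low-score embryo in each of the last 2 panels stands far above the rest, at 507 and 372 CPM.

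Genes of trophoblast and decidua, tissues that surround the embryo, were noticed among the out-of-phase genes, and lists of them were written after the values had been seen and are given without a test. The 27 trophoblast genes summed to 15.6 to 42.2 CPM (median 25.6) in high-score and 21.5 to 507 CPM (median 61.7) in low-score embryos. The 14 decidua genes summed to 25.4 to 58.9 CPM (median 36.8) and 40.9 to 372 CPM (median 63.8). The highest sums were in Smchd1matΔ replicate 1 at 6 somites for trophoblast and Smchd1wt replicate 2 at 6 somites for decidua. Of the 27 trophoblast and 14 decidua genes, 18 and 12 passed the filter on low counts, and their calls are not counted here because the choice of the lists fixed their direction. Of the 27 trophoblast genes 6 had no count in any high-score and 4 in any low-score embryo, and the spongiotrophoblast marker Tpbpa had none in 12 high-score and 10 low-score embryos. Without the pair of 6-somite embryos named above, 301 in-phase and 534 out-of-phase genes passed, 74 of the 76 and 151 of the 184 among them. With the trophoblast, decidua and lateral plate lists as covariates, 0 genes passed in either direction in edgeR (295 at an unadjusted p-value under 0.05), and 69 of the 76 and 140 of the 184 kept their sign. The 184 included members of these lists, whose own levels made up the covariates. In the same fit Dll1 had a log2 difference of 0.33 (SE 0.29), Notch1 of 0.72 (SE 0.29) and Slc6a8 of -0.12 (SE 0.19).

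The other marker lists had no called gene and differed in direction, while 48.5% of all genes tested had log2 differences above 0. Of 17 endoderm genes 16 had negative log2 differences (median -1.66), with wide spread among embryos, as in Trf, which encodes transferrin and was at 5.39 to 45.6 CPM (median 20.3) in the 12 high-score embryos and at 3.94 to 124 CPM (median 43.2) in the 12 low-score embryos (adjusted p = 0.123, edgeR). The summed endoderm level was 169 to 2205 CPM in high-score and 205 to 5394 CPM in low-score embryos. Etv2, which starts the endothelial programme, was at 9.09 to 18.3 CPM (median 13.9) in the 12 high-score embryos and at 9.85 to 29.9 CPM (median 19.3) in the 12 low-score embryos (log2 difference -0.57, SE 0.15, adjusted p = 0.0609, edgeR), and 10 of 12 endothelial genes were below 0 (median -0.20). Shh, expressed in notochord and floor plate, had a log2 difference of 0.65 (adjusted p = 0.0727, edgeR), and 7 of 8 node and notochord genes were above 0 (median 0.43). Zic2, a neural and progenitor factor, had 0.51 (adjusted p = 0.113, edgeR), and 9 of 11 neural genes were above 0 (median 0.33). Cell cycle genes (median 0.07 over 16), retinoic acid genes (-0.06 over 10) and mitochondrial transcripts (0.00 over 9) had medians close to 0, and 0 genes in them were called. The 14 erythroid genes, none of them called, had a median of -0.09 that single embryos decided, since it was 0.59 without Smchd1wt replicate 3 at 8 somites and -0.58 without Smchd1matΔ replicate 4 at 6 somites. The part of these tissues in the differences above was not tested beyond the fits with marker covariates.

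**Figure D5:**
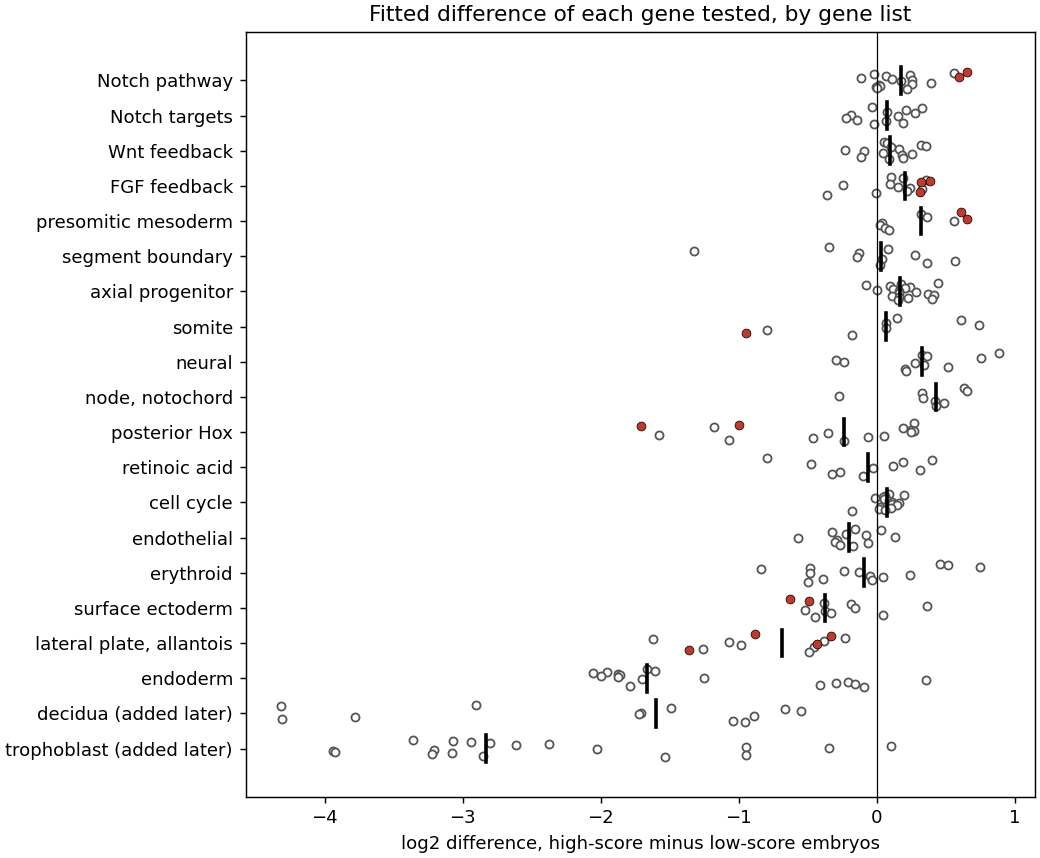
Fitted log2 difference, high-score minus low-score embryos (x axis), of every gene tested in 20 gene lists (y axis), with filled red points for genes past the adjusted threshold and black bars at the list medians. Presomitic mesoderm and FGF feedback genes lie mostly right of 0, with medians of 0.32 and 0.21, and lateral plate and endoderm genes left of it. The decidua and trophoblast lists, chosen after their values were seen, are drawn without calls.

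To ask whether the association with the score depended on maternal SMCHD1, the difference between genotypes in the high-low contrast was tested. No gene passed the adjusted threshold in edgeR, 881 of 16348 had an unadjusted p-value under 0.05, and DESeq2 called 4 (among them S100a4, Camk2n1 and Firre, named after their values were seen). Dll1 was at 82.5 to 172 CPM in 7 high-score and 32.3 to 115 CPM in 8 low-score Smchd1wt embryos, and at 106 to 151 CPM in 5 high-score and 81.4 to 125 CPM in 4 low-score Smchd1matΔ embryos. The difference between these contrasts was -0.32 (SE 0.26, unadjusted p = 0.242, adjusted p = 0.906, edgeR). Hes1 was at a median of 51.3 CPM in high-score and 44.0 CPM in low-score Smchd1wt embryos, and at 34.6 and 50.3 CPM in Smchd1matΔ embryos. These medians were not adjusted for stage, Hes1 rose with stage, and the low-score Smchd1matΔ group held older embryos. In the fit, which held somite number, the Hes1 difference between the contrasts was -0.59 (SE 0.19, unadjusted p = 0.00491, adjusted p = 0.888, edgeR). Of the scoring genes, Hes7 medians were 40.8 and 23.4 CPM in Smchd1wt and 38.2 and 28.2 CPM in Smchd1matΔ embryos, and Nrarp medians 107 and 48.6 CPM in Smchd1wt and 60.8 and 73.3 CPM in Smchd1matΔ embryos, where the low-score group held older embryos.

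RefSeq promoter windows were found for 63 of the 76 in-phase and 140 of the 184 out-of-phase genes. GTGGGAA occurred in 5.49% of the 91 windows of in-phase genes and 7.94% of the 189 windows of out-of-phase genes, against 6.11% of the windows of all genes tested. The corresponding shares were 3.30%, 7.41% and 9.53% for CACGTG and 13.2%, 8.47% and 16.1% for CACGCG. The windows of Notch1, Tbx6 and Dll3 held none of the 3 motifs, and of 2 windows of Dll1 one held CACGCG.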

How the data were processed

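Tailbud RNA of 37 embryos was measured by RNA-seq. As the labels and methods state, the authors made poly(A) libraries with stranded or non-stranded TruSeq kits, trimmed reads with Trim Galore 0.4.4, mapped them to GRCm38.p6 with HISAT2 2.0.5 and quantified genes in SeqMonk. The deposited table holds raw counts. Of 35591 rows, 49 repeated an identifier and were dropped, and 26 symbols turned into dates were restored. The authors' own comparisons of genotypes (p-values and fold changes) and log2 RPKM values of Hox genes were not used.

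Embryos were scored and grouped as described above. edgeR 4.0.16 in R 4.3.3 (filterByExpr with a minimum count of 10, TMM, quasi-likelihood test, two-sided, Benjamini-Hochberg over all genes tested) was fitted to the 24 embryos with somite number, genotype and sex, leaving 15 residual degrees of freedom. Each embryo was 1 replicate: over 42 pairs within groups the chi-square statistic per degree of freedom was 5.12 to 72.3. Members and gene lists were chosen with earlier results of these data known. Genes were named as the 3 scoring genes, list members past the threshold, the 10 genes with the smallest p-values in each direction, and list members chosen afterwards to show those that did not pass. On simulated counts for this comparison (16353 genes), 53% of changed genes were recovered at a log2 fold of 0.5 and 85% at 1. The simulated embryos had no stage, sex, genotype or tissue differences, and genes of similar level had similar spread. These shares therefore do not describe recovery in the real embryos. A gene called in the DESeq2 test of the difference between genotypes is not reported here. Alternatives included DESeq2 1.42.0, other covariates, other scores and leaving out embryos. Total counts were 917249 to 80666472 per embryo.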

Additional observations from a re-analysis of the deposited data

Results flagged for a closer look

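Within the 4 groups of one genotype and stage that held 4 embryos, the score and the 23 genes with a rule-based place in the report were searched for an embryo far from the other 3. The gap to the nearest embryo passed Dixon's limit in 11 of 96 checks, while chance gives about 1 in 20. These genes and the score were picked for the high-low contrast, so an embryo whose score group differs from that of the other 3 stands apart partly by that choice, and the number is not read against chance. Smchd1wt replicate 1 at 10 somites, a low-score embryo, accounted for 5 of them. Its Dll1 was 32.3 CPM (127 to 140 in the others) and its Sv2b 6.13 CPM (12.2 to 13.5), while Plac8 was 30.9 CPM (8.48 to 9.49), Csrp1 176 CPM (82.2 to 92.3) and Klf6 80.0 CPM (46.6 to 48.7). Without this embryo, 119 genes were higher and 165 lower in high-score embryos.

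Xdh stood apart in Smchd1wt replicate 2 at 6 somites with 4.99 CPM (0 to 0.121 in the others) and in Smchd1matΔ replicate 1 at 6 somites with 2.76 CPM (0 in the others). It also passed the limit in Smchd1wt replicate 3 at 10 somites, but that value, 0.0612 CPM (0 in the others), is at the floor of counting. Smchd1wt replicate 3 at 7 somites, a high-score embryo, had Slc6a8 at 16.0 CPM (27.8 to 29.7 in the others) and Cnksr3 at 42.8 CPM (34.5 to 35.4). Pdcd4 was 22.9 CPM in Smchd1matΔ replicate 3 at 6 somites (40.0 to 44.8 in the others), the shallowest library, which lay between the score groups.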

How the results depend on the processing

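Against 76 in-phase and 184 out-of-phase genes, the counts were 296 and 523 with DESeq2's Wald test, 395 and 601 with somite number as the only covariate, 0 and 1 with no covariate, 6 and 34 with the score as a continuous term over 37 embryos and 23 and 56 with a score from TMM-scaled CPM. Scores without Hes7, Lfng and Nrarp gave 44 and 118, 0 and 0, and 0 and 0. Smchd1wt embryos alone gave 0 and 0, females alone 2 and 6, 6 to 8 somites 1 and 25 and 9 to 11 somites 0 and 0. Covariates for presomitic mesoderm markers gave 0 and 7, for somite, erythroid and endoderm lists 0 and 0, and for trophoblast, decidua and lateral plate lists 0 and 0. Removing the library rich in ribosomal RNA gave 16 and 30, and removing the 2 libraries highest in decidua and trophoblast genes 301 and 534. Both fits that use decidua and trophoblast genes were chosen after seeing the data. Size factors of DESeq2, no filter and 3 groups over 37 embryos kept both counts within 1.5 times, and a depth limit removed none of the 24 embryos. Leaving out single embryos gave 0 to 627 and 0 to 880. The cause of these changes was not tested, but subsets held fewer embryos. List medians kept their sign in all 45 alternatives for presomitic mesoderm, FGF feedback, neural, node and notochord, surface ectoderm and cell cycle genes. The 45 are not separate checks, since 24 of them left out a single embryo each. At 6 to 8 somites the median was 0.07 for neural genes (5 of 10 above 0) and 0.003 for cell cycle genes (8 of 16). The medians of the lateral plate (0.00), endoderm (0.11) and endothelial (0.08) lists were above 0 at their highest. The lateral plate value came from the fit with this list's own mean as a covariate, so a value near 0 was built in. Medians of the Notch pathway (-0.01), Wnt (-0.10) and progenitor (-0.10) lists were below 0 at their lowest. The erythroid median ran from -0.95 to 1.13 and changed sign in 10 of the 45, and the boundary median ran from -0.15 to 0.50 and changed sign in 16.

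With the replicate number as a replicate block the counts were 0 and 0. The labels do not say that a number marks a shared litter or day. Residual profiles of same-numbered embryos correlated with a median of -0.01 (-0.58 to 0.70), against -0.02 (-0.68 to 0.63) for other pairs. These pooled medians cannot show whether some embryos shared a litter or day. For the difference between genotypes the block gave 0 genes, leaving out single embryos 0 to 0, and DESeq2 4.

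Signs changed as follows. With the trophoblast, decidua and lateral plate covariates the log2 differences were -0.0383 for Stc2, 0.0423 for Twist1, 0.0606 for Gata4, -0.0210 for Btg2, -0.0327 for Hey1, -0.11 for Msgn1, -0.12 for Shh, 0.00701 for Trf, -0.0699 for Hoxc8 and -0.0845 for Axin2. Gata4 is itself a member of the lateral plate list used as a covariate. Msgn1 was -0.20 and Axin2 -0.26 with presomitic mesoderm markers, of which Msgn1 is one. Axin2 was also -0.0349 per unit of the continuous score, -4.488e-04 without Hes7 in the score, -0.0320 in females, -0.00485 with somite, erythroid and endoderm lists, and between -0.0178 and 0.12 when single embryos were left out. Hes1 was 0.0117 with no covariate, 0.0178 with somite number alone, 0.0463 per unit of the continuous score, 0.10 with the TMM score, 0.0699 without Hes7 and 0.0527 without Lfng in the score, 0.21 in Smchd1wt embryos, 0.0899 at 9 to 11 somites, 0.0137 without the library rich in ribosomal RNA, and between -0.10 and 0.01 when single embryos were left out.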
